A study of Mus musculus with 32 samples.

Results

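The 10 genes described here, Cma1, Mcpt4, Tpsb2, Tpsab1, Cpa3, Fcer1a, Ms4a2, Hdc, Kit and Mrgprb1, are mast cell genes, taken by name from a table of 24952 genes. They were measured in laser-captured regions of the tibialis anterior (TA) muscle of male wild-type C57BL/6JRj mice, singly caged and fed the AIN93M diet, the older mice for longer, so that age and time on the diet cannot be told apart. The regions were synaptic, marked by α-bungarotoxin binding (NMJ), or extra-synaptic (xNMJ), and came from mice aged 10 or 30 months. The 4 groups are named by age and region (10m NMJ and 10m xNMJ, then 30m NMJ and 30m xNMJ), with 8 libraries each, 32 in all. Each library pools many captured regions, so it is a mixture of the muscle fibre and of every other cell in the captured area. The genes were selected on their levels in earlier results from these same libraries, and which contrast decided is not recorded, so their differences between groups are a description, and the calls of the fit for them support nothing. Nothing in the labels says whether libraries of a group came from separate animals, and the standard errors below measure the spread between libraries.

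Mast cells are resident immune cells of connective tissue that lie along vessels and nerves. They store proteases (chymases, tryptases and carboxypeptidase A3), histamine and heparin in granules and release them when IgE bound to the high-affinity receptor FcεRI is crosslinked, or when peptides and other ligands engage receptors of the Mrgpr family. Their survival depends on KIT, the receptor for stem cell factor, and their lineage genes are under the control of GATA and MITF transcription factors. Connective tissue mast cells of the mouse carry Cma1, Mcpt4, Tpsb2 and Cpa3, whereas Mcpt1 and Mcpt2 mark those of mucosal surfaces.

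The promoters of 3 granule protease genes are shown because they belong to the members with the clearest difference between regions, and because GATA factors act in this lineage. The sequences are the 250 bases before the RefSeq start (GRCm38.p6), written 5′ to 3′ on the strand of the gene. Capitals mark matches to the GATA motif, for which the words AGATAA or AGATAG, and also the words TGATAA or TGATAG, were searched on both strands. The windows are chr14:55944676-55944925 for Cma1, chr14:56062311-56062560 for Mcpt4 and chr3:20242182-20242431 for Cpa3, all on the minus strand.
Cma1: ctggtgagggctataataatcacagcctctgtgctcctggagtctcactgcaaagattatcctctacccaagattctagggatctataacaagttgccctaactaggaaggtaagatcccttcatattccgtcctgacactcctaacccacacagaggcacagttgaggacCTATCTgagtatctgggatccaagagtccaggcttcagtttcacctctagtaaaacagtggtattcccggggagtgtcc
Mcpt4: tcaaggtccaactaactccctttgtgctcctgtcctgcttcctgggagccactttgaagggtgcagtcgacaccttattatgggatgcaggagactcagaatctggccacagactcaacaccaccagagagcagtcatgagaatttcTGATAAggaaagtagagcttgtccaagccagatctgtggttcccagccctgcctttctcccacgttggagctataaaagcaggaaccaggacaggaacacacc
Cpa3: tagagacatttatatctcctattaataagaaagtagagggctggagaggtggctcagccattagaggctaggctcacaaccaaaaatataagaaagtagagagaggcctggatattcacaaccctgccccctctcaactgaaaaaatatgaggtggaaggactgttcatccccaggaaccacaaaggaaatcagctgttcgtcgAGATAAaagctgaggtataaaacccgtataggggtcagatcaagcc
The matches begin 79 bases before the start in Cma1, 103 bases before it in Mcpt4 and 46 bases before it in Cpa3. RefSeq promoters were found for 8 of the 10 genes (not for Tpsb2 and Tpsab1), and 7 of these 8 (87.5%) held a GATA match, the exception being Kit. Among 27025 genes with a promoter of the same length, 29.7% held one. The MITF motif, searched as CATGTG and CACGTG on both strands, was in 1 of the 8 promoters, that of Fcer1a, and in 19.8% of all genes. A match is a run of letters and was not tested for binding.

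Transcripts of the granule proteases Cma1, Mcpt4, Tpsb2 and Cpa3 were found in NMJ regions and were at or near 0 in xNMJ regions. Kit and Mrgprb1 at both ages, and Hdc at 10 months, had more xNMJ counts than these proteases had. Levels are given in CPM, counts scaled to the library total, which ranged from 4026648 to 16516788. At 10 months, the summed level of the 10 genes was between 0.699 and 6.49 CPM in xNMJ libraries, with a median of 1.85 CPM, and between 15.0 and 129 CPM in NMJ libraries, with a median of 36.0 CPM. At 30 months, it was between 0.152 and 5.41 CPM in xNMJ libraries, with a median of 2.53 CPM, and between 9.80 and 163 CPM in NMJ libraries, with a median of 67.0 CPM. At either age, the lowest of the 8 NMJ libraries exceeded the highest of the 8 xNMJ libraries. NMJ libraries were also deeper, with a median total of 9605869 counts against 6062117 at 10 months and 9825357 against 6790011 at 30 months. In bulk regions, fewer mast cells and less RNA per mast cell cannot be told apart.

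**Figure D1:**
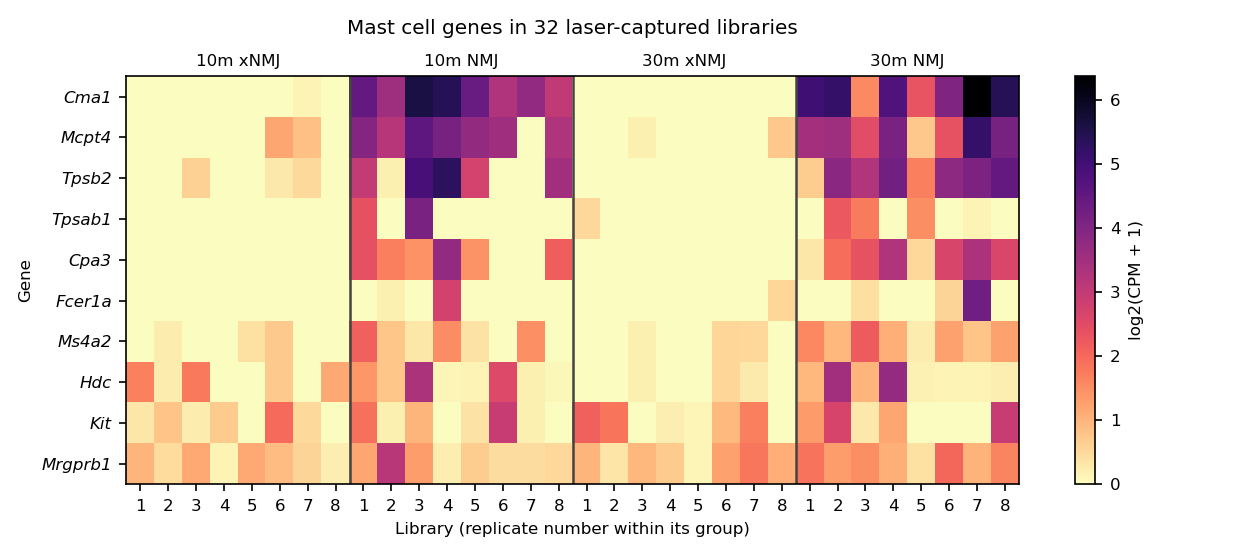
Heat map of log2(CPM + 1) for the 10 mast cell genes (rows) in the 32 libraries (columns, by group and replicate number). Cma1 is dark in the 16 NMJ columns and at or near 0 in the 16 xNMJ columns, whereas Kit and Mrgprb1 have colour in both regions at both ages and Hdc at 10 months.

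One library stood apart from its label. 30m xNMJ replicate 5 held 80.6 CPM of Chrne, the adult subunit of the acetylcholine receptor, and a summed level of 337 CPM over 6 synaptic genes, against at most 33.3 CPM in the other 30m xNMJ libraries. It nevertheless had the lowest summed level of mast cell genes of the 32 libraries, 0.152 CPM. 10m NMJ replicate 8 had the shortest insert size in its label, 52 nt, and a summed mast cell level within the range of its group. Without both libraries, each of the remaining NMJ libraries still lay above every xNMJ library of its age.

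**Figure D2:**
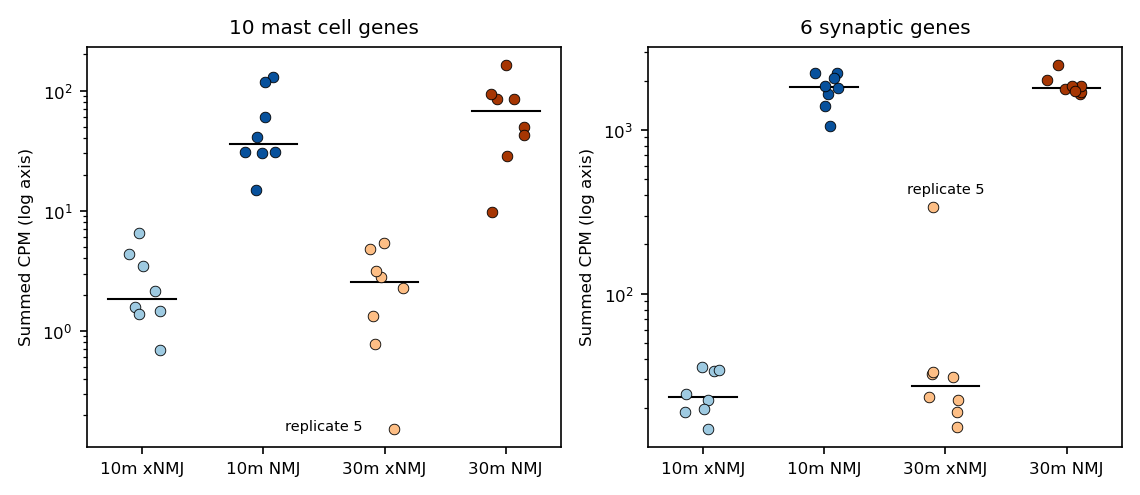
Summed CPM (log axis) of the 10 mast cell genes (left) and of 6 synaptic genes (right), 1 point per library, with a line at the median of each group. 30m xNMJ replicate 5 is between the regions in the synaptic genes (337 CPM) and lowest in the mast cell genes (0.152 CPM).

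Of the 10 genes, 8 reached 1 CPM in 8 or more libraries and entered the fit (Tpsab1 and Fcer1a did not). In the edgeR quasi-likelihood fit, 4 of these 8 were past an adjusted p of 0.05 and higher in NMJ at 10 months (Cma1, Mcpt4, Tpsb2 and Cpa3, of which Tpsb2 was not past it with the replicate number as a block), where 11.5% of the 13990 tested genes were called in either direction and 6.5% were higher. At 30 months, 5 were past it (the same 4 and Hdc), where 9.26% were called and 5% were higher. Hdc was past it in 17 of the 24 fits that left out 1 library and tested it. It was not past it with insert size as a covariate, with the replicate number as a block or without the filter. Fits without a library in which Hdc reached 1 CPM did not test it. The tally therefore does not cover the libraries that carry Hdc. Nothing is read from the counts of called genes, because the genes had been chosen with these values known. A gene that passes the filter through NMJ libraries alone had to differ. The median log2 fold change of the 8 genes was 3.68 at 10 months and 5.41 at 30 months (5.33 with the genes absent from xNMJ set at their lower bound), beside 0.00361 and -0.01 over all tested genes.

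Cma1 (ENSMUSG00000022225, chr14:55941451-55944675) encodes a mast cell chymase, a granule protease. Cma1 was between 7.20 and 47.6 CPM in 10m NMJ (median 16.4) and between 1.95 and 82.2 CPM in 30m NMJ (median 28.8). It was over the floor of 3 counts in all 16 NMJ libraries. In xNMJ, Cma1 had 1 count at 10 months, in replicate 7, and 0 counts at 30 months. The groups did not overlap in either age, which held for 4.57% of tested genes at 10 months and 4.5% at 30 months. The ratio of NMJ to xNMJ pooled CPM of Cma1 was 1090 at 10 months (exact counting interval at 95% confidence, 195 to 43055), a value that rests on the 1 count in xNMJ. Without that library, Cma1 was at least 293-fold higher at 10 months. It was at least 511-fold higher at 30 months, both with the floor of 3 counts taken over the xNMJ group. The ratio and the bounds are not on 1 basis, and their sizes do not compare the ages. Intervals and floors cover counting error only.

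Mcpt4 (chr14:56059629-56062313), the other chymase of connective tissue mast cells, was between 0 and 22.3 CPM in 10m NMJ (median 11.4) and between 0.670 and 35.4 CPM in 30m NMJ (median 10.4). It was at 0 in 10m NMJ replicate 7 although Cma1 had 182 counts there. In xNMJ, Mcpt4 reached 1.26 CPM at 10 months (replicate 6) and 0.678 CPM at 30 months (replicate 8), and 7 of 8 NMJ libraries at each age lay above every xNMJ library. The log2 fold change of Mcpt4 between regions was 4.94 ± 1.01 (SE, n = 8 and 8) at 10 months and 6.49 ± 1.14 at 30 months. Without the xNMJ library with the highest level, it was 5.72 at 10 months and 7.99 at 30 months. The lowest values with 1 library left out were 4.72 at 10 months (without 10m xNMJ replicate 4) and 5.97 at 30 months (without 30m NMJ replicate 7). Of the 31-base words in the Mcpt4 transcripts, 12.0% also occur in other genes, mostly in Cma2, so that some of its reads could be split between the 2 genes. Cma1 and Mcpt4 lie 114953 bases apart on chromosome 14. Within 250000 bases of either, 29 genes are in the table and 9 passed the filter, and Cma1 and Mcpt4 were the 2 protease genes among these 9. Between them lies Mcpt1, a mucosal mast cell protease gene, which had at most 2 counts in any library, and Mcpt2, which had at most 3.

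The tryptases differed from each other in level. Tpsb2 (chr17:25366305-25369098) encodes the tryptase that forms heparin-bound tetramers in granules. Tpsb2 was between 0 and 38.6 CPM in 10m NMJ (median 6.21), with 2 libraries at 0, and between 0.589 and 21.0 CPM in 30m NMJ (median 13.1). In xNMJ it reached 0.523 CPM at 10 months and was 0 in all 8 libraries at 30 months, so that the regions overlapped at 10 months and not at 30 months. The log2 fold change of Tpsb2 was 5.61 ± 1.25 (SE, n = 8 and 8) at 10 months (4.99 without 10m NMJ replicate 4), and Tpsb2 was at least 198-fold higher in NMJ at 30 months. Tpsab1 (chr17:25343245-25345562), the neighbouring tryptase gene, exceeded 3 counts in 5 libraries, all of them NMJ. Replicate 3 held 78.8% of the 170 Tpsab1 counts of 10m NMJ, at 16.5 CPM, and 30m NMJ libraries were at 3.78 CPM or less. The share of 31-base words in common between the 2 tryptase genes was 0.557% of those of Tpsb2.

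Cpa3 (chr3:20215620-20242181) encodes carboxypeptidase A3, which trims peptides together with chymase in the granule. Cpa3 was at 0 in all 16 xNMJ libraries. It was between 0 and 12.3 CPM in 10m NMJ (median 1.99) and between 0.236 and 9.03 CPM in 30m NMJ (median 4.67). Cpa3 was at 0 in 10m NMJ replicates 6 and 7, which also had 0 counts of Tpsb2. The level was at least 62.1-fold higher in NMJ at 10 months and at least 80.5-fold higher at 30 months. 10m NMJ replicate 4 held 53.3% of the Cpa3 counts of its group, and without it the level at 10 months was at least 34.2-fold higher.

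Of the subunits of FcεRI, Fcer1a and Ms4a2 were low. Fcer1a (chr1:173221284-173227214) encodes the chain that binds IgE and lies at the surface of mast cells and basophils. Fcer1a came almost wholly from 1 library per age: 10m NMJ replicate 4 held 75 of 76 counts at 10 months (98.7%), and 30m NMJ replicate 7 held 198 of 206 counts at 30 months (96.1%). Both libraries were also among the highest for Cma1, at 41.4 and 82.2 CPM. Ms4a2 (chr19:11615523-11623719) encodes the β chain, which amplifies the signal. Ms4a2 was between 0 and 3.35 CPM in 10m NMJ (median 0.495) and between 0.183 and 3.58 CPM in 30m NMJ (median 1.22), and never exceeded 3 counts in xNMJ. Its log2 fold change was 2.43 ± 1.03 (SE, n = 8 and 8) at 10 months and 2.92 ± 1.05 at 30 months. With single libraries left out, it ranged from 2.21 (without 10m xNMJ replicate 7) to 3.24 (without 10m xNMJ replicate 6) at 10 months. At 30 months, it ranged from 2.67 (without 30m xNMJ replicate 5) to 3.54 (without 30m xNMJ replicate 6). Only NMJ libraries reached 1 CPM of Ms4a2, so it passed the filter through them alone. The 24 fits behind these ranges left out none of those libraries. Fcer1g, the γ chain that macrophages and other myeloid cells also use, was the most abundant of the other mast cell genes, and its median was 11.4 CPM in 10m NMJ against 2.05 CPM for 10m xNMJ, but its log2 fold change was 0.25 ± 0.85 (SE, edgeR adjusted p = 0.904) and the groups overlapped.

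Kit and Mrgprb1 at both ages, and Hdc at 10 months, had 30 or more counts over the xNMJ libraries, against at most 14 for any other member. Hdc (chr2:126593667-126619299) encodes histidine decarboxylase, which makes histamine. Hdc was between 0 and 2.44 CPM in 10m xNMJ (median 0.405) and between 0.0605 and 9.13 CPM in 10m NMJ (median 0.422), and the groups overlapped. At 30 months, Hdc reached 0.452 CPM in xNMJ and was between 0.0922 and 12.1 CPM in NMJ (median 0.546), and 4 of the 8 NMJ libraries lay above every xNMJ library. The log2 fold change was 0.68 ± 1.15 (SE, n = 8 and 8) at 10 months and 4.32 ± 1.40 at 30 months (5.16 without 30m xNMJ replicate 6). Over the 30 alternatives that tested Hdc, the value at 30 months ranged from 2.96 to 5.16. 30m NMJ replicate 4 held 57.1% of the Hdc counts of its group, and Hdc missed the filter in the fit without that library.

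Kit (chr5:75574916-75656722), the stem cell factor receptor, was between 0 and 2.93 CPM in 10m xNMJ (median 0.319) and between 0 and 6.55 CPM in 10m NMJ (median 0.213). It was between 0 and 3.38 CPM in 30m xNMJ (median 0.529) and between 0 and 6.56 CPM in 30m NMJ (median 0.749). The regions overlapped at both ages, and the log2 fold change was 0.57 ± 1.22 (SE, n = 8 and 8) at 10 months and -0.11 ± 1.19 at 30 months. 10m NMJ replicate 6 held 58.7% of the Kit counts of its group, and without it the log2 fold change at 10 months was -0.48. It was 1.47 at 10 months without 10m xNMJ replicate 6, and -0.71 at 30 months without 30m NMJ replicate 8. Kit is also used by melanocytes and some endothelial and interstitial cells. Mrgprb1 (chr7:48444113-48456342), a member of the Mrgpr receptor family, had reads in all 32 libraries. The median of Mrgprb1 at 10 months was 0.662 CPM for xNMJ and 0.496 CPM for NMJ, at 30 months 0.961 CPM for xNMJ and 1.66 CPM for NMJ, and the groups overlapped. Its log2 fold change was 0.62 ± 0.71 (SE, n = 8 and 8) at 10 months and 0.17 ± 0.70 at 30 months. Without 10m NMJ replicate 2, which held 54.9% of the counts of its group, the value at 10 months was -0.58.

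On the length-scaled TPM scale, levels can be compared between genes. In 10m NMJ, the median level was 18.0 TPM for Cma1, 12.5 TPM for Mcpt4, 7.03 TPM for Tpsb2 and 2.07 TPM for Cpa3. In 30m NMJ, it was 34.0 TPM for Cma1, 14.8 TPM for Tpsb2, 11.8 TPM for Mcpt4 and 4.70 TPM for Cpa3. Cma1 exceeded Mcpt4 in 6 of 8 libraries at 10 months and exceeded Tpsb2 in 7 of 8 at 30 months. The order of Mcpt4 and Tpsb2 was not separated from the spread between libraries, since Mcpt4 exceeded Tpsb2 in 4 of 8 libraries at 10 months and Tpsb2 exceeded Mcpt4 in 6 of 8 at 30 months. The other 6 genes had medians under 1 TPM in both groups. Cma1 was the largest contributor to the summed TPM of the 10 genes in 13 of 16 NMJ libraries, Tpsb2 in 2 and Mcpt4 in 1. The share of Cma1 ranged from 8.06% in 30m NMJ replicate 3 to 93.0% in 10m NMJ replicate 7.

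**Figure D3:**
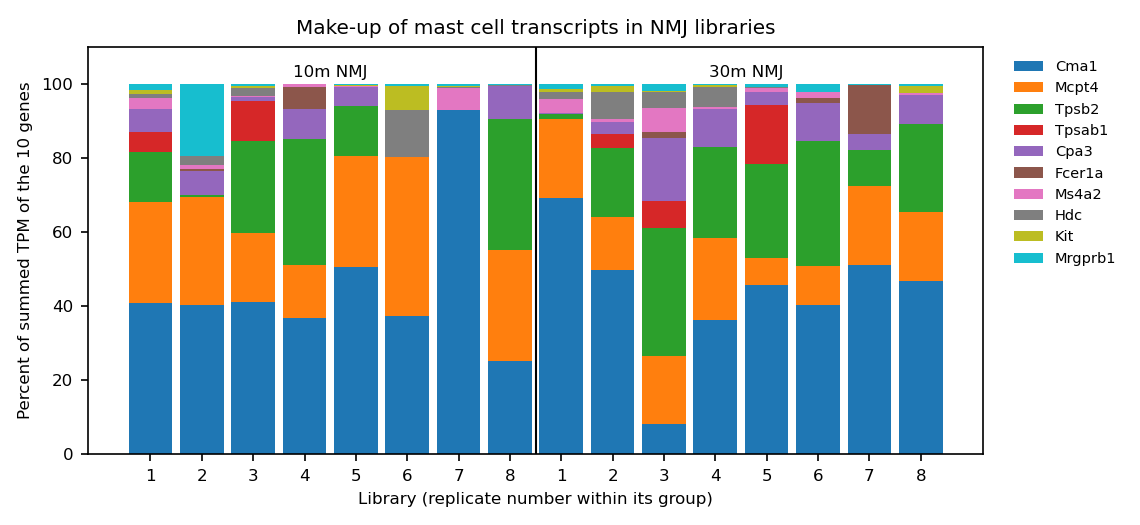
Share of each of the 10 mast cell genes in their summed TPM (percent, stacked bars) in the 16 NMJ libraries, by age and replicate number. Cma1 is the largest share in 13 of 16 libraries and ranges from 8.06% to 93.0%.

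The median correlation between members was lower within groups than over all libraries, although some pairs were higher within a group. The median Pearson r between log2(CPM + 1) of member pairs was 0.342 over 32 libraries and 45 pairs, but 0.171 within 10m NMJ and 0.155 within 30m NMJ. The libraries fall into 2 clusters by region, so that the value over 32 libraries mostly describes the distance between regions. Tpsb2 and Cpa3 had the highest r over 32 libraries, 0.919 (rho = 0.908), and r was 0.764 within 10m NMJ and 0.925 within 30m NMJ. Cma1 and Mcpt4 followed with 0.917, and r was 0.466 within 10m NMJ and 0.843 within 30m NMJ. All pairs share library depth. Without the 2 libraries farthest from the median, 10m NMJ replicate 3 and 30m NMJ replicate 7, the median r over pairs was 0.313.

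The 10 genes outside the list whose log2(CPM + 1) was most alike to the summed mast cell level over 32 libraries had r from 0.907 to 0.891. They included Adam23, Chpf, Sfrp1, Gfra1, Plpp3, Gpc3, Sox10, Cacna2d3 and Ncmap, of which Sox10 and Ncmap are known from Schwann cells. Within groups the values scattered, for example for Gpc3 from -0.64 in 10m NMJ to 0.50 in 10m xNMJ, and for Cacna2d3 from -0.31 in 30m NMJ to 0.88 in 10m NMJ. After group means were subtracted, 0 of these 10 genes were among the most alike, so that the likeness describes the shared difference between regions.

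Of 34 other genes known from mast cells or, as Il33, from signals that they respond to, 21 passed the filter. At 10 months 2 of the 21 were higher in NMJ and none was lower (edgeR, Benjamini-Hochberg over all genes), and at 30 months 1 was higher and none was lower, beside the 6.5% and 5% of all tested genes that were higher. Their median log2 fold change was 0.73 at 10 months and 0.16 at 30 months. The 2 at 10 months were Ltc4s, the synthase of leukotriene C4, and Syk, the kinase downstream of FcεRI. Ltc4s was at 0 in all 8 libraries of 10m xNMJ and between 0.141 and 14.7 CPM in 10m NMJ (median 2.40), at least 69.4-fold higher (edgeR adjusted p = 0.00349). All 8 NMJ libraries were above 0, but the lowest was under the floor of 3 counts. Ltc4s passed the filter in part through 10m NMJ libraries and through no 10m xNMJ library. Fits without a library in which Ltc4s reached 1 CPM did not test it. Its call, from a list chosen with earlier results known, is therefore a description. Syk rose by 3.60 ± 1.10 (log2, SE, edgeR adjusted p = 0.0262), from a median of 0.0487 to 1.98 CPM, and was higher than the xNMJ median in 7 of 8 libraries. Its log2 fold change was 4.27 without 10m xNMJ replicate 1 and 3.38 without 10m xNMJ replicate 4. At 30 months, the log2 fold change between regions was 0.16 ± 1.23 for Ltc4s (SE, edgeR adjusted p = 0.964) and 0.15 ± 0.91 for Syk (edgeR adjusted p = 0.953), for which it was 1.30 without 30m xNMJ replicate 2. Over the 30 alternatives that tested Ltc4s, its value at 30 months ranged from -0.02 to 2.20. At 30 months, Il33, the alarmin that mast cells respond to and that is made by stromal cells, rose by 5.61 ± 1.10 (log2, SE, edgeR adjusted p = 7.24e-04). Il33 was at most 0.607 CPM in 30m xNMJ and between 0.913 and 33.7 CPM in 30m NMJ (median 20.8), so that the groups did not overlap. At 10 months, Il33 overlapped between regions through 10m xNMJ replicate 8, at 21.5 CPM, and its log2 fold change was 1.61 ± 0.88 (SE, edgeR adjusted p = 0.284). Without that library it was 3.74, and with the replicate number as a block 4.24, both past an adjusted p of 0.05. The 3 highest by mean TPM were Fcer1g, Srgn, the core protein of granule proteoglycan, and Alox5ap, which serves leukotriene synthesis, and none of them was called. Ltc4s, Syk, Fcer1g, Srgn and Alox5ap are also used by macrophages.

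Markers of other cells in the captured area were measured beside them. Of 8 macrophage genes, 5 were higher in NMJ at 10 months (Cd68, C1qa, C1qb, Mrc1 and Lyz2) and 5 at 30 months (Adgre1, C1qb, C1qc, Mrc1 and Lyz2), with median log2 fold changes of 3.57 and 3.11. Their summed level at 10 months had a median of 18.8 CPM for xNMJ and 330 CPM for NMJ, at 30 months 19.8 CPM for xNMJ and 339 CPM for NMJ, and Lyz2 was the most abundant. Of 5 fibroblast genes, led by Dcn, 4 were higher in NMJ at both ages. Sox10, a Schwann cell gene named above for its likeness, had a median of 0 CPM in xNMJ and 13.3 CPM in NMJ at 10 months, and of 0.0379 and 15.2 CPM at 30 months. The part of these cells in the difference of the mast cell genes was not tested. Muscle fibre genes went the other way: Acta1, Ckm and Tnnt3 fell at both ages, by 0.75, 1.08 and 0.92 on the log2 scale at 10 months. Cldn1, a perineurial gene, was higher at 10 months, and Cdh5, an endothelial gene, was lower at 30 months. Of the blood, lymphocyte and neutrophil lists, 2 of 2, 1 of 4 and 2 of 3 genes passed the filter, and none was called between regions. All 6 synaptic genes (Chrne, Chrna1, Chrnd, Colq, Musk and Etv5) were higher in NMJ at both ages. Etv5 rose with age in xNMJ by 4.61 ± 0.87 (log2, SE, edgeR adjusted p = 0.0309), a call that was lost without 30m xNMJ replicate 5 (2.67 ± 0.64, edgeR adjusted p = 0.104).

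**Figure D4:**
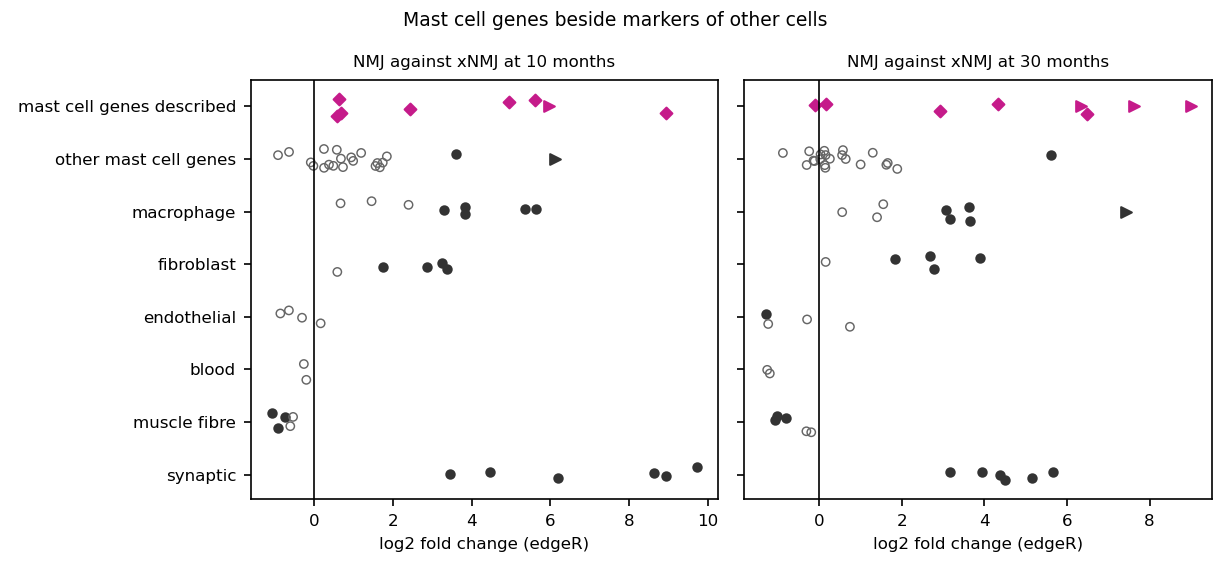
log2 fold change (edgeR) of NMJ against xNMJ at 10 (left) and 30 months (right), 1 mark per gene that passed the filter. Magenta diamonds and triangles are the 8 of the 10 mast cell genes that passed, drawn without their calls, filled circles are genes past an adjusted p of 0.05, open circles are genes that are not, and triangles of either colour are lower bounds of genes with 0 counts in xNMJ. Macrophage, fibroblast and synaptic genes lie to the right of 0 and muscle fibre genes to the left.

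Basophils share FcεRI with mast cells. Of the basophil protease genes, Mcpt8 had at most 2 counts in any library. Prss34 had 13 counts over the libraries of 30m NMJ and 2 over those of 30m xNMJ. Cd200r3 carried nearly all of the summed level of the 4 basophil genes. This sum had a median of 15.6 CPM for xNMJ and 7.41 CPM for NMJ at 10 months. At 30 months, its median was 29.5 CPM for xNMJ and 21.9 CPM for NMJ. Melanocytes share Kit, and their 4 genes summed to a median at 10 months of 4.04 CPM for xNMJ and 7.01 CPM for NMJ. At 30 months, the median was 4.10 CPM for xNMJ and 4.95 CPM for NMJ. Only 1 of the 4 genes passed the filter, and it was not called. The mucosal mast cell genes Mcpt1 and Mcpt2 were not over the floor in any library. The labels name no cell type in the captured regions other than muscle.

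With age, the differences of the mast cell genes in NMJ regions were smaller than their standard errors for the 8 genes in the fit of all libraries, but several moved with single libraries. The log2 fold change of 30m NMJ over 10m NMJ was 0.47 ± 0.54 (SE, n = 8 and 8) for Cma1, 0.06 ± 0.81 for Mcpt4, -0.03 ± 0.95 for Tpsb2 and 0.41 ± 0.94 for Cpa3. The median of the summed level was 36.0 CPM at 10 months and 67.0 CPM at 30 months, with ranges that overlapped over most of their length. Without 30m NMJ replicate 7, the value was -0.00403 for Cma1 and -0.45 for Mcpt4. Without 10m NMJ replicate 4, it was 1.14 for Cpa3 and 0.59 for Tpsb2. For the other 4 genes it was between 0.10 (Mrgprb1) and 0.54 (Hdc) with all libraries. Mrgprb1 was at 1.30 without 10m NMJ replicate 2. Kit was at 1.44 without 10m NMJ replicate 6 and at -0.21 without 30m NMJ replicate 8. None of the 8 was past an adjusted p of 0.05, and 0 of 13990 genes were (0%), with 372 at an unadjusted p under 0.05 and 0 by DESeq2.

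**Figure D5:**
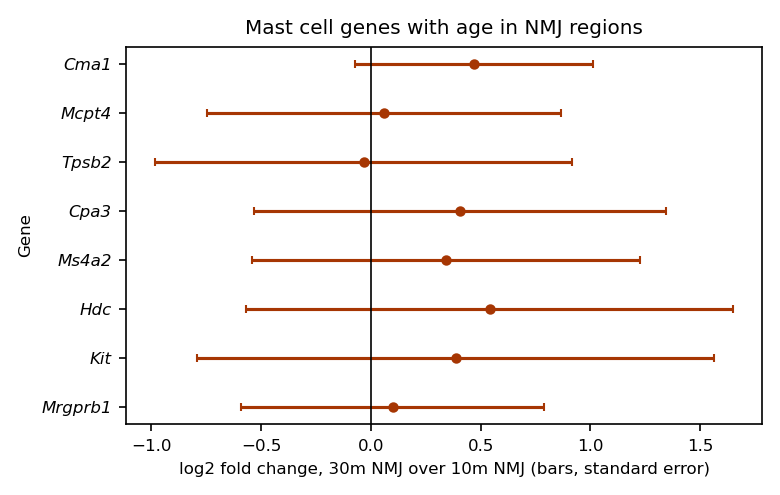
log2 fold change of 30m NMJ over 10m NMJ for the 8 mast cell genes that passed the filter, with standard errors as bars. The 8 values lie between -0.03 and 0.54, and every bar crosses 0.

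In xNMJ regions most members were too low for a comparison of ages. Hdc had 35 counts over the 8 libraries of 10m xNMJ and 4 counts over those of 30m xNMJ. Its log2 fold change was -3.11 ± 1.39 (SE, n = 8 and 8), or -3.95 without 30m xNMJ replicate 6 and -2.84 without 30m xNMJ replicate 5. Kit had 30 and 60 counts and a log2 fold change of 1.07 (1.98 without 10m xNMJ replicate 6 and 0.53 without 30m xNMJ replicate 1). Mrgprb1 had 32 and 44 counts and a log2 fold change of 0.55. None of the 8 members was called, beside 0.0429% of tested genes. In the interaction of age and region 0 of 13990 genes were called (0%) in edgeR, 708 were at an unadjusted p under 0.05, and DESeq2 called 10. None of the 21 other mast cell genes was called in the comparisons of age or in the interaction, where 1, 4 and 3 of them were at an unadjusted p under 0.05 in NMJ, in xNMJ and in the interaction.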

How the data were processed

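Captured NMJ and xNMJ regions gave RNA that was converted to cDNA with a SMART-Seq v4 kit and sequenced single-end. Per the labels and methods, the authors trimmed reads with cutadapt 1.9.1 and assigned them with kallisto 0.43.1 to protein-coding Ensembl transcripts of GRCm38, where a read on several transcripts was divided among them. The authors deposited whole-number counts per gene, not normalized, and TPM, scaled for transcript length and library total. The members and gene lists were chosen with earlier results of these data known.

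Counts were analyzed with edgeR 4.0.16 (R 4.3.3): TMM factors, genes reaching 1 CPM in 8 or more libraries, 4 groups in 1 quasi-likelihood fit and Benjamini-Hochberg adjustment over 13990 genes (threshold 0.05). P values are two-sided. By library, 3 counts corresponded to 0.182 to 0.745 CPM. No molecular identifiers were used, and so reads do not count molecules. Genes named outside the 10 are the other mast cell genes past the threshold and the 3 highest by mean TPM, markers past it or most abundant in their list, and the 10 genes most alike in level (log2(CPM + 1)). Locus neighbours, Mcpt1, Mcpt2, Mcpt8 and Prss34 were named after their values were seen. Positions are from GENCODE on GRCm38 and promoters from RefSeq on GRCm38.p6. Alternatives were DESeq2 1.42.0, its size factors, no filter, robust estimation, insert size as a covariate, the replicate block, TPM, a pseudocount of 0.1 in place of 1, and leaving out each library. Leaving out both doubted libraries was chosen after seeing the data. Steps were tested on simulated data. Some genes named by the rule and 1 marker list are not reported here.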

Additional observations from a re-analysis of the deposited data

Results flagged for a closer look

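In 8 of 31 combinations of gene (or summed level) and group with a library over 3 counts, the highest library was separated from the next by more than Dixon's 95% critical value, which chance exceeds in about 1 in 20 groups of normally distributed values. These values are skewed, with many at 0, so that the count is not read against that rate. Mcpt4 was 35.4 CPM in 30m NMJ replicate 7, against 16.7 CPM in the next library. Tpsab1 was 16.5 CPM in 10m NMJ replicate 3, against 4.16 CPM. Cpa3 was 12.3 CPM in 10m NMJ replicate 4, against 4.28 CPM. Fcer1a was 5.68 CPM in 10m NMJ replicate 4, against 0.141 CPM, and 18.2 CPM in 30m NMJ replicate 7, against 0.480 CPM. Kit was 2.93 CPM in 10m xNMJ replicate 6, against 0.730 CPM, and 6.55 CPM in 10m NMJ replicate 6, against 2.78 CPM. Mrgprb1 was 7.91 CPM in 10m NMJ replicate 2, against 1.48 CPM. The causes were not tested.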

How the results depend on the processing

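The regional counts of all genes called stayed within 1.5 times the main values, 1615 at 10 months and 1295 at 30 months, under every alternative, and leaving out each library gave 1420 to 1705 and 1100 to 1476. Of the 10 genes, 4 were called at 10 months in every leave-one-out fit, and 4 to 6 at 30 months. Over all alternatives, 3 to 5 were called at 10 months, and Tpsab1 was past the threshold without the filter (edgeR adjusted p = 0.0341). Hdc at 30 months was called in 17 of the 24 leave-one-out fits that tested it. None of these fits left out a library in which Hdc reached 1 CPM. Hdc was not called with insert size as a covariate or without the filter. For the other mast cell genes the leave-one-out counts were 1 to 3 at 10 months, where Ltc4s missed the filter in 8 of the 32 fits, and 1 to 2 at 30 months. At 30 months, 2 were called without the filter and 2 with the replicate block, and DESeq2 called 1 with age in xNMJ. With age in xNMJ, 6 genes were called in all, 84 by DESeq2, 2 with insert size as a covariate, and 0 to 7 without single libraries. For the interaction, DESeq2 called 10 genes and leave-one-out fits 0 to 1. With age in NMJ every fit run called 0. The causes were not tested.

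Same-numbered NMJ and xNMJ libraries correlated weakly in their deviations from group means (mean r 0.0893 at 10 months and 0.0807 at 30 months, over 0.1 in 4 and 1 of 8 pairs, best with their own number in 4 and 4). Since not every pair was over 0.1, the main fit did not pair the libraries, but this rule cannot exclude pairing. Each library had 8 candidates, and 4 of 8 at each age were best with their own number. The labels do not say whether 2 libraries of a number share a muscle. The authors' methods state that both kinds of region were collected per sample, but do not tie the numbers to a muscle. With the replicate block, 1829 genes were called at 10 months and 1531 at 30 months, and 3 and 4 of the 10 mast cell genes, Tpsb2 at 10 months and Hdc at 30 months no longer among them. The median r between members was 0.300 from TPM and 0.355 with a pseudocount of 0.1. Of the 10 genes most alike, 5 were shared from TPM, 5 with a pseudocount of 0.1 and 0 after subtracting group means. Members near 3 counts are limited by depth.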
